A study of Mus musculus with 2 samples.

Results

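The cytochrome P450 genes of the aged mouse heart were described as a family in libraries of total RNA. Members were all genes with a Cyp name made of a family number, a subfamily letter and a gene number that have at least 1 protein-coding transcript, with Cyp2f2 and pseudogenes left out. Cyp51, whose name has no subfamily letter, fell outside this rule and was counted with partner genes. Any P450 gene named otherwise was also outside it. The rule gave 97 of the 55536 Ensembl genes measured, among 22015 nuclear protein-coding genes. The hearts came from female B6CASTF1/J mice, the F1 cross of C57BL/6J and CAST/EiJ, aged 18 to 20 months and supplied by The Jackson Laboratory. The labels give 1 group, heart, with biological replicates 2 and 1, and no treatment or control. Library input was 300 ng of ribo-reduced RNA, with ERCC spike-in RNAs. The libraries' biosample entries differ while the donor entry is shared, so the spread between the replicates may be partly technical. With 1 group there was no contrast to test and no p-value, and differences between the libraries were read against those of all genes.

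Cytochrome P450 enzymes are haem proteins that insert an oxygen atom into small lipophilic molecules. Most sit in the endoplasmic reticulum and take electrons from the reductase encoded by Por, while a few sit in mitochondria and take them from ferredoxin, encoded by Fdx1. Families 1 to 3 are best known for drugs and other foreign compounds in the liver, and family 4 for fatty acids. Further families make and degrade sterols, steroid hormones, bile acids, vitamin D and retinoic acid. In heart, the products of arachidonic acid have been studied most, both the epoxides made by Cyp2c and Cyp2j enzymes and the hydroxylated acids made by family 4.

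What the family shares in sequence is the loop that holds the haem iron, in which a cysteine is the iron's ligand. In the GENCODE M21 coding sequences, a 30-nt stretch encoding its pattern of phenylalanine, glycine, cysteine and glycine at fixed spacing was found in frame in 92 of 97 members. It took 74 different forms, with the cysteine codon TGC in 57 and TGT in 35. The loops below are shown for genes on which the results turn, 5′ to 3′ on the coding strand with the cysteine codon in capitals, to show how far members of 1 fold differ in their letters.
Cyp2u1: tttgggatagggaagcgggtgTGTatggga
Cyp4b1: ttttctgcagggcccaggaatTGCattggg
Cyp2d22: ttctcagcaggccgcagatcaTGCctgggg
Cyp2e1: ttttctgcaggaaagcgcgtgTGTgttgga
Cyp27a1: ttcggctatggggttcggtctTGCctgggt
Cyp1b1: ttctcagtgggcaaacggaggTGCatcggt
Cyp26b1: tttggcggtggcgtgcggaccTGCctgggc
In the build mm10, used for all gene coordinates here, the loop of Cyp27a1 lay in exon 8 at chr1:74737320-74737349 on the plus strand, that of Cyp1b1 in exon 3 at chr17:79710309-79710338 on the minus strand and that of Cyp26b1 in exon 7 at chr6:84574477-84574506 on the minus strand. The loops of the other genes shown crossed an exon junction. Coding lengths over the 97 members ran from 1017 to 1641 nt with a median of 1512 nt. For Cyp20a1, Cyp2s1, Cyp2b10, Cyp8b1 and Cyp3a59 the searched pattern was not in the chosen transcript.

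Expected counts, which are reads assigned to genes with shared reads divided among them, totalled 36926429 in replicate 2 and 35897521 in replicate 1. At these depths a gene with 0 counts may have up to 3 counts, or 0.0812 CPM in replicate 2 and 0.0836 CPM in replicate 1, where CPM is counts scaled to the library total. All 7 cardiomyocyte markers were present, with a summed level of 37493 TPM in replicate 2 against 38953 TPM in replicate 1, where TPM is the level per transcript length, scaled to a fixed total per library. Levels are from a gene table in RSEM's column layout unless the second quantification, in kallisto's layout, is named. The libraries differed in markers of other cell types and tissues. All 9 adipocyte genes were higher in replicate 2 and summed to 472.6 TPM in replicate 2 against 104.4 TPM in replicate 1. All 6 airway genes were higher in replicate 2, with sums of 284.6 TPM in replicate 2 against 0.48 TPM in replicate 1. Summed lymphocyte markers were 10.8 TPM in replicate 2 against 1.86 TPM in replicate 1, and atrial markers 1066 TPM in replicate 2 against 441.2 TPM in replicate 1. Summed erythroid markers were 7566 TPM in replicate 2 against 16068 TPM in replicate 1. In bulk tissue, fewer cells of a type and less RNA per cell cannot be told apart.

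The heart held a small subset of the family at low levels. At 1 TPM or more in both libraries, 14 of 97 P450 genes were detected (14.4%), against 10977 of 21918 other nuclear protein-coding genes (50.1%). No counts at all in either library were assigned to 46 members (47.4%), against 23.6% of the other protein-coding genes. The median of the mean level was 0.01 TPM over the 97 members and 1.23 TPM over the other protein-coding genes. A further 26 members had counts that stayed under 10 in both libraries, and 25 had 10 or more in at least 1 library, 22 of them in both.

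Summed over the family, P450 transcripts came to 101.5 TPM in replicate 2 against 74.99 TPM in replicate 1, a mean of 88.2 ± 18.7 TPM (SD, n = 2). This was 0.0254% of all nuclear protein-coding TPM in replicate 2 and 0.0182% in replicate 1. The sum was carried by few genes. The 4 members with the highest mean over both libraries made up 55.2% of it in replicate 2 and 56.3% in replicate 1. The 10 members with the highest mean made up 83.1% in replicate 2 and 79.6% in replicate 1. Without Cyp2e1 and Cyp2a5, left out after their values were seen, the sum was 76.1 TPM in replicate 2 against 72.4 TPM in replicate 1.

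**Figure D1:**
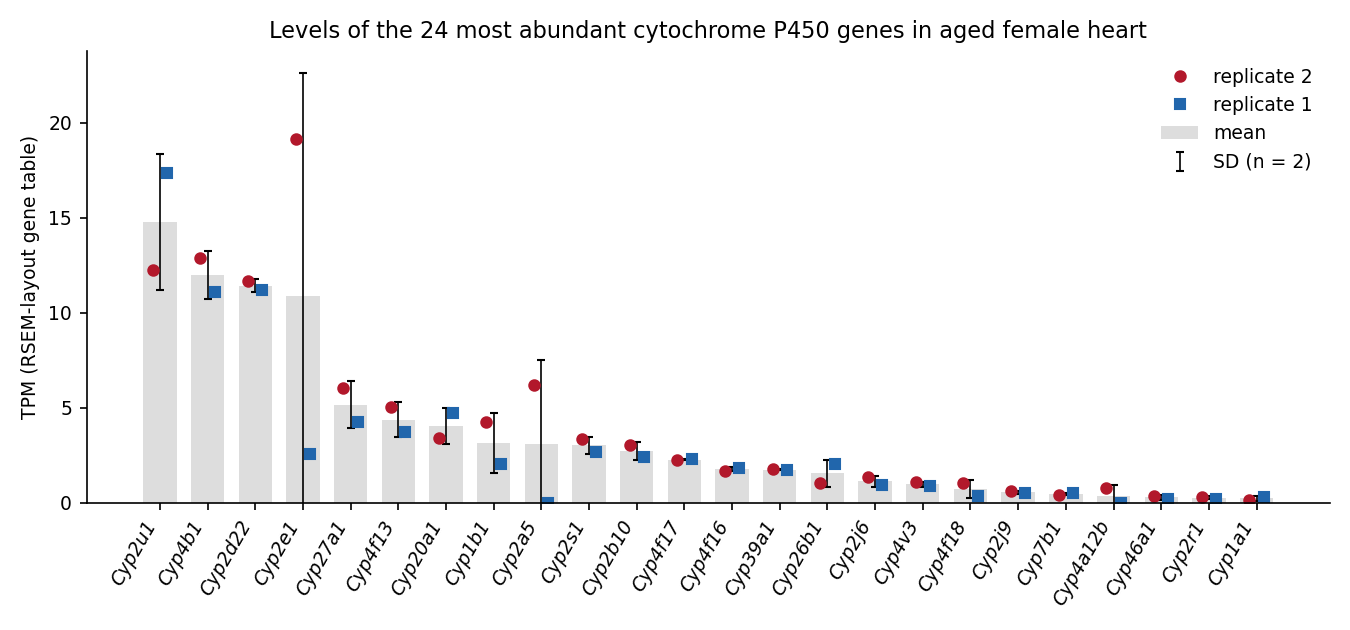
Levels of the most abundant P450 genes in TPM, with replicate 2 as circles, replicate 1 as squares, bars at the mean and error bars of 1 SD (n = 2, drawn down to 0 at most). Cyp2u1, Cyp4b1 and Cyp2d22 were above 11 TPM in both libraries, while Cyp2e1 had 19.2 TPM in replicate 2 against 2.59 TPM in replicate 1.

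Fatty acid hydroxylases, taken as family 4 with Cyp2u1, were the largest source of P450 transcripts that both libraries shared. Their 21 members summed to 37.3 TPM in replicate 2 against 37.8 TPM in replicate 1, 36.8% of the family's TPM in replicate 2 and 50.4% in replicate 1. In both libraries 5 of the 21 reached 1 TPM, and 6 had no counts. Cyp2u1, which hydroxylates arachidonic acid and other long-chain fatty acids, had the highest mean of all members, with 12.3 TPM (1290 counts) in replicate 2 against 17.3 TPM (1728 counts) in replicate 1. Its gene lies alone at chr3:131288441-131303227. Cyp4b1, an enzyme of fatty acids and of some foreign compounds that is strong in lung, followed with 12.9 TPM in replicate 2 against 11.1 TPM in replicate 1 (chr4:115624725-115647723). It was the 1 member at that level among the 10 genes of the Cyp4a, Cyp4b and Cyp4x cluster.

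Of the members at 1 TPM or more in both libraries 3 were Cyp4f genes, whose relatives hydroxylate leukotrienes and long fatty acids, and all lay in the cluster at chr17:32452723-32947402. Cyp4f13 had 5.03 TPM in replicate 2 against 3.72 TPM in replicate 1. Cyp4f17 had 2.27 TPM in replicate 2 against 2.29 TPM in replicate 1. Cyp4f16 had 1.70 TPM in replicate 2 against 1.85 TPM in replicate 1. The levels of these 3 genes were close in the libraries, but for Cyp4f16 and Cyp4f17 the sign of the small difference depended on the scale. The log2 ratio of replicate 2 over replicate 1 for Cyp4f16 was -0.12 in TPM, 0.38 in scaled counts and 0.96 in the second quantification, and for Cyp4f17 it was -0.01 in TPM, 0.26 in scaled counts and 0.40 in the second quantification. Cyp4v3, a fatty acid hydroxylase whose human counterpart is mutated in a retinal disease, lay just under the level by its mean of 0.985 TPM, with 1.08 TPM in replicate 2 against 0.89 TPM in replicate 1.

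The family 2 enzymes other than Cyp2c, Cyp2j, Cyp2r1 and Cyp2u1 held most of the difference between the library sums. Their 22 members summed to 43.8 TPM in replicate 2 against 19.2 TPM in replicate 1. Of these members, 4 were at or above 1 TPM in both libraries and 10 had no counts. The difference lay chiefly in Cyp2e1 and Cyp2a5, described below. Cyp2e1 had 19.2 TPM in replicate 2 against 2.59 TPM in replicate 1. Cyp2a5 had 6.21 TPM in replicate 2 against 0 TPM in replicate 1. Cyp2d22, the mouse gene often compared with human CYP2D6, had 11.7 TPM in replicate 2 against 11.2 TPM in replicate 1 and was the only one of the 8 clustered Cyp2d genes at that level (chr15:82370527-82380260). Cyp2s1, an enzyme mainly of epithelia outside the liver, had 3.35 TPM in replicate 2 against 2.70 TPM in replicate 1 (chr7:25802475-25816913). Cyp2b10, which phenobarbital induces in liver, had 3.07 TPM in replicate 2 against 2.39 TPM in replicate 1 (chr7:25897620-25926624). Of these 3 genes, Cyp2d22 stood at the level of the leading fatty acid hydroxylases and the other two lay several-fold lower. The log2 ratio of Cyp2s1 changed sign between scales, at 0.30 in TPM and -0.12 in the second quantification.

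Among the members, genes of sterol metabolism were detected for sterol side-chain and oxysterol hydroxylation and not for the classical entry into bile acid synthesis. Cyp51, outside the member rule and listed with sterol enzymes, had 2.47 TPM in replicate 2 against 3.4 TPM in replicate 1. Of 6 cholesterol and bile acid enzymes, 2 reached 1 TPM in both libraries, and the group summed to 8.62 TPM in replicate 2 against 6.72 TPM in replicate 1. Cyp27a1, the mitochondrial sterol hydroxylase, had 6.03 TPM in replicate 2 against 4.28 TPM in replicate 1 (chr1:74713574-74737892). Cyp39a1, an oxysterol hydroxylase, had 1.77 TPM in replicate 2 against 1.73 TPM in replicate 1 (chr17:43667425-43751431). Cyp7a1, the rate-limiting enzyme of bile acid synthesis in liver, had 0 counts in both libraries. Among the 6 mitochondrial members of the family, Cyp27a1 was the only one at 1 TPM in both libraries, and no other mitochondrial member exceeded 3 counts in replicate 2 or 2 counts in replicate 1.

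Groups with 1 detected member were family 20, family 1 and the retinoic acid hydroxylases. Cyp20a1, an orphan enzyme whose substrate is not established, had 3.39 TPM in replicate 2 against 4.73 TPM in replicate 1 (chr1:60343323-60388060). Cyp1b1, a target of the aryl hydrocarbon receptor that is found in mesenchymal cells, had 4.28 TPM (575 counts) in replicate 2 against 2.03 TPM (257 counts) in replicate 1 (chr17:79701537-79715061). The other two family 1 genes were at or near 0, with 11 counts in replicate 2 and 23 counts in replicate 1 for Cyp1a1 and none for Cyp1a2. Cyp26b1, which clears retinoic acid, had 1.04 TPM (131 counts) in replicate 2 against 2.06 TPM (246 counts) in replicate 1 (chr6:84571414-84593908), while Cyp26a1 and Cyp26c1 had at most 4 counts in a library.

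The arachidonic acid epoxygenases, taken as all Cyp2c and Cyp2j genes, were scarce. The group was set by name, and which members make epoxides was not tested. Of the 23 Cyp2c and Cyp2j genes, none reached 1 TPM in both libraries and 16 had no counts, and the group summed to 2.24 TPM in replicate 2 against 1.68 TPM in replicate 1. Cyp2j6, a relative of the human heart epoxygenase CYP2J2, was its highest member with 1.34 TPM (138 counts) in replicate 2 against 0.92 TPM (90 counts) in replicate 1 (chr4:96516138-96553661). In the 14-gene Cyp2c cluster at chr19:39007019-40187333, 12 genes had no counts.

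Enzymes of steroid hormones, of vitamin D and of family 3 were near the limit of detection. The 6 steroid hormone enzymes summed to 0.09 TPM in replicate 2 against 0.11 TPM in replicate 1. Cyp11a1, which starts steroid synthesis from cholesterol, was the highest of them with 1 count in replicate 2 and 2 counts in replicate 1, and Cyp11b1, Cyp19a1 and Cyp21a1 had 0 counts. The vitamin D enzymes were led by Cyp2r1, which makes the circulating form in liver, with 0.33 TPM (16 counts) in replicate 2 against 0.22 TPM (11 counts) in replicate 1. Cyp24a1, which degrades vitamin D, had 0 counts. Of 9 family 3 genes, 8 had no counts, and Cyp3a13 had 7 counts in replicate 2 and 3 counts in replicate 1. Cyp2r1 was the only member of these 3 groups with 10 or more counts in both libraries.

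**Figure D2:**
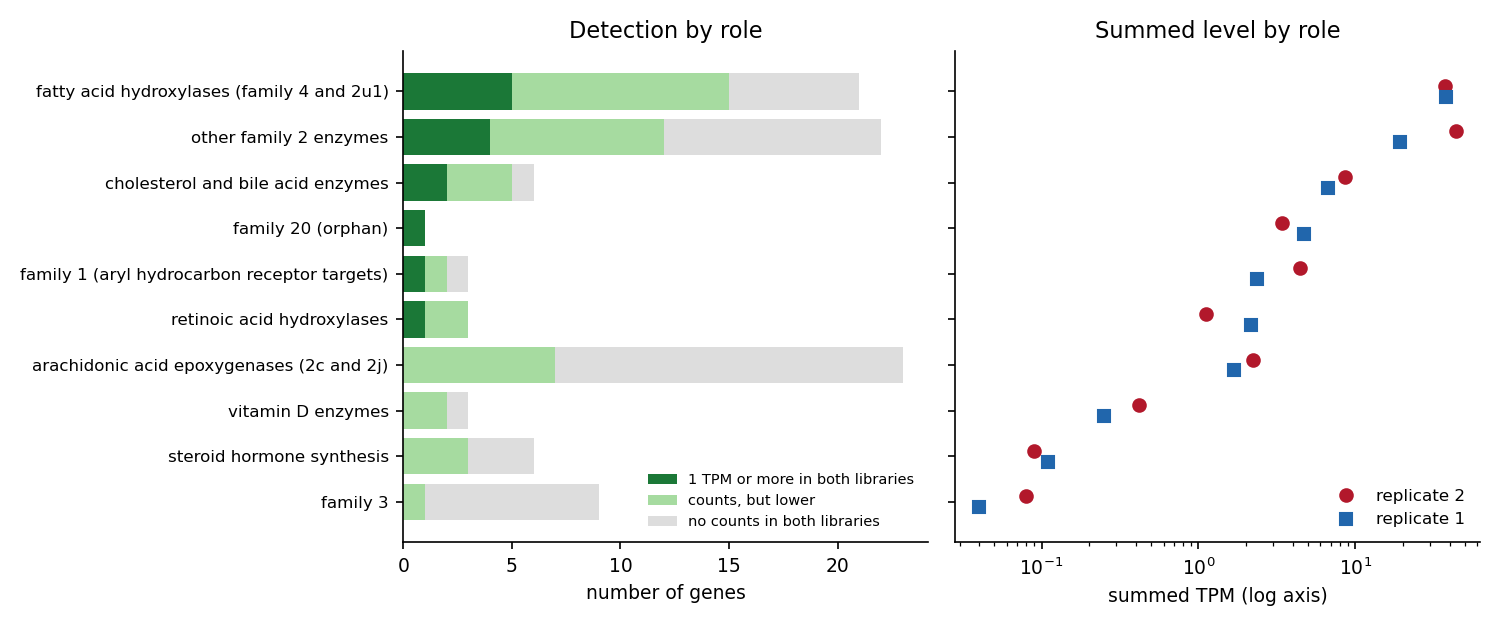
Left, the number of P450 genes of each role at or above 1 TPM in both libraries, with lower counts, and with no counts in both. Right, the summed TPM of each role on a log axis, with replicate 2 as circles and replicate 1 as squares. Fatty acid hydroxylases summed to 37.3 TPM in replicate 2 against 37.8 TPM in replicate 1, whereas the other family 2 enzymes were apart, with 43.8 TPM in replicate 2 against 19.2 TPM in replicate 1.

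The detected members were spread over tandem clusters and over genes that lie alone. Shares are given as a description, since clustered genes share ancestry. Joining members up to 500 kb apart gave 32 positions on 14 chromosomes. The 7 clusters of 5 or more genes held 68 members, of which 7 reached 1 TPM in both libraries (10.3%). Of the 22 members alone at their position, 7 did (31.8%), and of the 7 members in smaller clusters, 0 did. The 8 clustered Cyp3a genes at chr5:145345279-146113287 had no counts in either library. The Cyp4f cluster held the most detected members of a cluster, 3 of 8.

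The order of neighbouring levels was not settled. Among the 16 members with a mean of 1 TPM or more, ranked by mean, the ranges over the libraries overlapped for every pair of neighbours except Cyp2b10 over Cyp4f17 and Cyp4f17 over Cyp4f16. Neither of these orders held in the second quantification, where Cyp4f16 had 3.50 TPM in replicate 2 against 1.75 TPM in replicate 1, Cyp4f17 had 2.89 TPM in replicate 2 against 2.16 TPM in replicate 1, and Cyp2b10 had 2.89 TPM in replicate 2 against 2.07 TPM in replicate 1. Cyp2e1 ranked 1 in replicate 2 and 8 in replicate 1, Cyp2u1 ranked 3 in replicate 2 and 1 in replicate 1, and Cyp2a5 ranked 5 in replicate 2 and had no reads in replicate 1. The leading group of Cyp2u1, Cyp4b1 and Cyp2d22 was in the top 4 of both libraries.

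Most members with a mean of 1 TPM or more were close between the libraries, and those 2-fold or more apart were all higher in replicate 2. Of the 16 members, 3 were 2-fold or more apart on the scale of log2(TPM + 0.1), namely Cyp2e1, Cyp1b1 and Cyp2a5, against 528 of 12510 genes with a mean of 1 TPM or more (4.22%). All 3 were higher in replicate 2, as were 413 of the 12510 genes (3.30%), and 0 members were lower in replicate 2, as were 115 genes (0.919%). The other 13 members had log2 ratios between -0.92 and 0.50. Cyp2a5, at 0 TPM in replicate 1, reached the mean of 1 TPM only through replicate 2, so it could only be called higher there. The 12510 genes were filtered on the mean in the same way. The median log2 ratio of replicate 2 over replicate 1 was 0.26 over the 16 members and 0.02 over all 12510 genes.

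Cyp2e1, the ethanol-oxidising enzyme abundant in liver, had 19.2 TPM (932.9 counts) in replicate 2 against 2.59 TPM (116.8 counts) in replicate 1 (chr7:140763739-140774987). It made up 18.9% of the family's TPM in replicate 2 and 3.45% in replicate 1. Its CPM was 7.75-fold higher in replicate 2, with an exact 95% interval of 6.39 to 9.48 that covers counting error only, and the log2 ratio was 2.84 in TPM and 2.84 in the second quantification. The difference far exceeded counting error, and it is that of 1 library against 1.

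Cyp2a5, the coumarin hydroxylase of liver and of the nasal mucosa, had 6.21 TPM (349.6 counts) in replicate 2 against 0 TPM (0 counts) in replicate 1 (chr7:26835305-26843548). Set against the floor of 3 counts in replicate 1, its CPM was at least 113-fold higher in replicate 2. This bound allows for the 0 in replicate 1 only, and the two-sided exact 95% interval, which also covers counting error in replicate 2, starts at 91.8-fold. Cyp1b1 CPM was 2.18-fold higher in replicate 2 (95% interval 1.88 to 2.53, counting error only), with a log2 ratio of 1.04 that was 0.80 when 1 TPM rather than 0.1 TPM was added. Its difference lay close to the 2-fold line, whereas those of Cyp2e1 and Cyp2a5 did not.

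Several of the marker lists moved the same way between the libraries as these 3 genes, and their part in the differences was not tested. Among adipocyte markers, Ucp1 had 41.8 TPM in replicate 2 against 3.52 TPM in replicate 1 and Adipoq 25.1 TPM in replicate 2 against 2.28 TPM in replicate 1. Of the 8 adipocyte markers at a mean of 1 TPM or more, 7 were higher in replicate 2 by 2-fold or more. Of the airway markers, Bpifa1 had 157.1 TPM and Scgb1a1 31.3 TPM in replicate 2, and both were at 0 in replicate 1, as were Scgb3a2 and Reg3g. Fibroblast markers, of which 4 of 5 were higher in replicate 2, summed to 191.1 TPM in replicate 2 against 176.2 TPM in replicate 1, and mural markers to 167.3 TPM in replicate 2 against 185.0 TPM in replicate 1. Hepatocyte markers summed to 33.0 TPM in replicate 2 against 19.3 TPM in replicate 1, with Alb, Serpina1c and Fgb at 0 in both libraries. The other hepatocyte markers were all higher in replicate 2, led by Trf with 26.1 TPM in replicate 2 against 16.5 TPM in replicate 1 and Ahsg with 5.25 TPM in replicate 2 against 1.78 TPM in replicate 1.

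Among the 16 members, Cyp26b1 showed the largest difference in the other direction, with CPM in replicate 2 at 0.518 times that of replicate 1 (95% interval 0.416 to 0.643, counting error only) and a log2 ratio of -0.92. Of the alternatives run, it passed the 2-fold line only with CPM after TMM scaling, at -1.01. Below the mean of 1 TPM, Cyp4f18 and Cyp4a12b also differed. Cyp4f18, a hydroxylase of leukotriene B4 in mouse neutrophils, had 1.06 TPM (35 counts) in replicate 2 against 0.39 TPM (13 counts) in replicate 1, a count ratio of 2.62 (95% interval 1.35 to 5.39). Cyp4a12b had 0.76 TPM (51.6 counts) in replicate 2 against 0 counts in replicate 1, at least 16.7-fold higher in replicate 2 against the floor of 3 counts, with the two-sided exact 95% interval starting at 13.2-fold. Cyp1a1 lay the other way in counts, with a ratio of 0.465 (95% interval 0.205 to 0.993, counting error only), and its log2 ratio in TPM was -0.78, short of 2-fold.

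**Figure D3:**
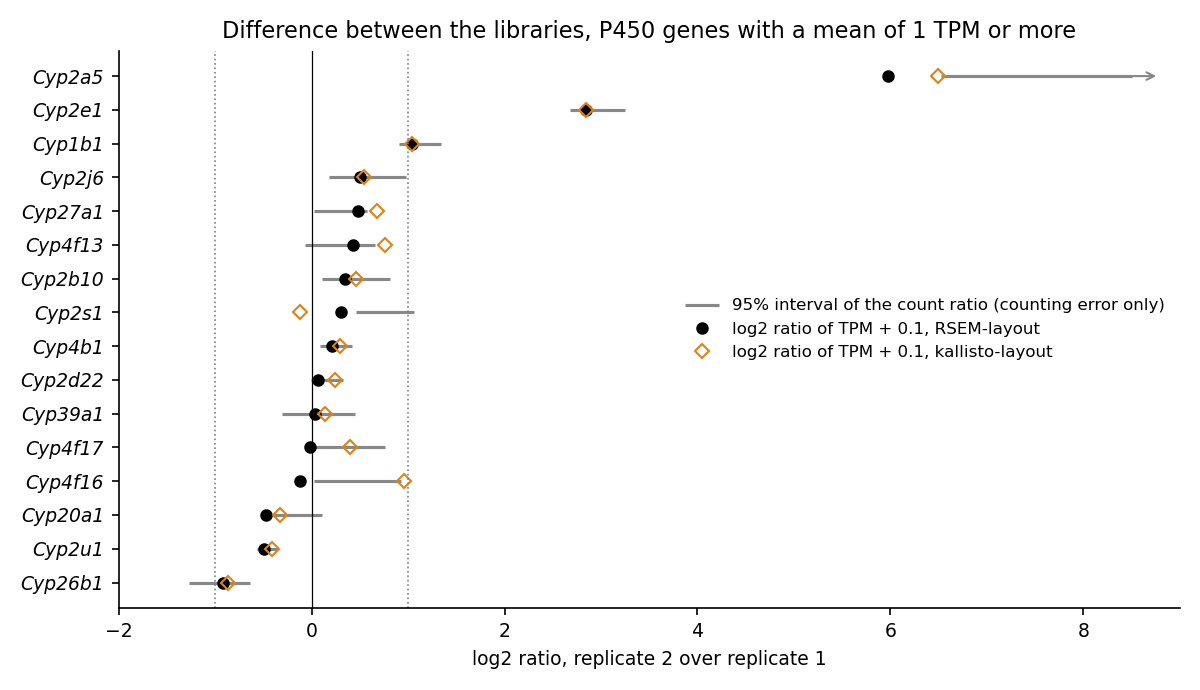
Log2 ratios of replicate 2 over replicate 1 for the 16 P450 genes with a mean of 1 TPM or more, from the RSEM-layout gene table (filled circles) and the kallisto-layout table (open diamonds), with 0.1 TPM added. Grey lines are 95% intervals of the count ratio for counting error only, dotted lines mark 2-fold, and the interval of Cyp2a5 has no upper end because replicate 1 had 0 counts. Cyp2e1 at 2.84 and Cyp2a5 stand far to the right, and Cyp26b1 at -0.92 is the lowest.

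Reads of some of these genes are hard to place because a close copy exists. Over all 31-nt words of its transcripts, Cyp2a5 shared 54.6% with transcripts of other genes, chiefly Cyp2a4, and Cyp4a12b shared 62.9% with its neighbour Cyp4a12a. The coding sequences of each pair differed at 23 bases, an identity of 98.5%. The stretches below are from exon 2 of the Cyp2a pair and exon 6 of the Cyp4a pair in the C57BL/6J reference. They are shown because they hold bases that separate the copies in that reference, and the capitals mark the bases that differ within a pair. Whether CAST/EiJ alleles carry the same bases was not tested.
Cyp2a5, chr7:26835813-26835872, plus strand: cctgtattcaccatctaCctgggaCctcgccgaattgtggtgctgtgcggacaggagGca
Cyp2a4, chr7:26307668-26307727, plus strand: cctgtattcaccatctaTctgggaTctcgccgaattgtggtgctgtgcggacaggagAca
Cyp4a12b, chr4:115432882-115432941, plus strand: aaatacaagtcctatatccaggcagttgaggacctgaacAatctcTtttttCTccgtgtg
Cyp4a12a, chr4:115326629-115326688, plus strand: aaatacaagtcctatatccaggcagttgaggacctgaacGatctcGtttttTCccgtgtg
Summed over the pair, Cyp2a5 and Cyp2a4 had 353 counts in replicate 2 and 0 in replicate 1, of which 3.44 in replicate 2 were assigned to Cyp2a4. Cyp4a12b and Cyp4a12a together had 56 counts in replicate 2 and 0 in replicate 1. The difference between the libraries was therefore present whether the copies were split or summed, while the division within each pair remains uncertain. Cyp4f16 shared 26.7% of its words and Cyp2b10 19.4%, and Cyp27a1, Cyp1b1, Cyp39a1 and Cyp26b1 shared none.

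Both quantifications gave similar levels for nearly all members with a mean of 1 TPM or more. Of 17 members with a mean of 1 TPM or more in either table, 0 differed by over 2-fold between the tables in the same direction in both libraries, against 958 of 13223 genes (7.24%). Over the 16 members with a mean of 1 TPM or more in the RSEM-layout table, the ratio of the kallisto-layout to the RSEM-layout level ran from 0.866 to 2.06. The median of this ratio was 1.05, and lower members, not part of this range, had ratios outside it. The highest ratio among the 16 was that of Cyp4f16 in replicate 2, with 3.50 TPM in the kallisto-layout table and 1.70 TPM in the RSEM-layout table.

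Transcript shares were similar between the libraries for the leading genes and not for Cyp2e1 and Cyp27a1. Cyp2u1-201 held 73.0% ± 0.042 of Cyp2u1 transcripts and Cyp4b1-201 held 95.9% ± 0.057 of Cyp4b1 transcripts (SD, n = 2 each). Cyp2d22-201 held 54.4% ± 0.559, next to a retained-intron transcript of 375 nt at 22.4% ± 3.08 (SD, n = 2). In the kallisto-layout table that retained-intron transcript held 9.77% in replicate 2 and 3.66% in replicate 1, and a coding transcript of 721 nt was second with 16.8% in replicate 2 and 23.4% in replicate 1. Cyp2e1-201 held 73.0% in replicate 2 and 53.1% in replicate 1, with nearly all the rest in another coding transcript of 1582 nt. The kallisto-layout table gave this second transcript a share of 0% in replicate 2 and 30.2% in replicate 1, so here too the split depended on the table. Cyp27a1-201 held 70.0% in replicate 2 and 90.7% in replicate 1. The rest of Cyp27a1 was in 2 retained-intron transcripts, which together with the retained introns of Cyp2d22 are part of the gene levels given above.

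Exons of 3 named members overlap genes on the opposite strand. Of Cyp4f18 exon bases, 9.76% are shared with Zfp961, which had 3.18 TPM in replicate 2 against 3.57 TPM in replicate 1. The overlap of Cyp2u1 was 10.5% with an antisense gene at 0 TPM in replicate 2 against 0.03 TPM in replicate 1, and that of Cyp2s1 was 5.27% with a noncoding gene at 0 in both libraries. Since the sources used here do not say whether counting used the strand, Cyp4f18 reads in the shared bases cannot be told apart from those of Zfp961.

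Promoters of the P450 genes with a mean of 1 TPM or more held few CG dinucleotides for genes of that level. This set includes Cyp2a5 and Cyp2j6, which were under 1 TPM in replicate 1. Their windows held 2 CG dinucleotides in Cyp2a5 and 4 in Cyp2j6. RefSeq promoter windows of build GRCm38.p6, from 250 bases before to 50 after the start, matched 12 of the 16 members with a mean of 1 TPM or more, 26 of the 35 lower members with counts and 36 of the 46 without counts. Cyp2u1, Cyp2d22, Cyp4f17 and Cyp39a1 had no entry. The median number of CG dinucleotides was 5.5 in the 12 windows of the members at 1 TPM or more, 2 in the 31 windows of lower members and 2 in the 41 windows of members without counts. Windows of other nuclear protein-coding genes had a median of 14, which was 21 for those with a mean of 1 TPM or more and 5 for those below. The highest counts among members were 20 for Cyp20a1, 17 for Cyp2s1 and 16 for Cyp1b1 at 1 TPM or more.

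**Figure D4:**
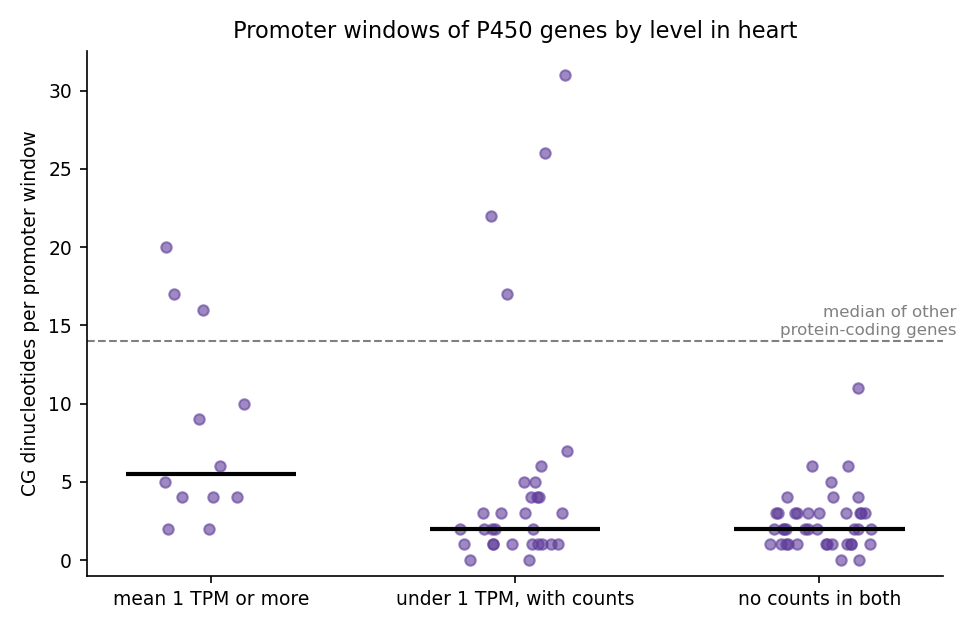
Number of CG dinucleotides in each 300-base promoter window of P450 genes (points), grouped by the gene's level in heart, with black lines at the medians and a dashed line at the median of other protein-coding genes. The medians were 5.5, 2 and 2 from left to right, against 14 for the other genes.

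Common promoter words were counted as letters only. GGGCGG, the GC box, was found on either strand in 8 of the 12 windows of members at 1 TPM or more (66.7%), 7 of the 31 windows of lower members (22.6%) and 3 of the 41 windows of members without counts (7.32%), against 47.9% of other windows. By level, it was found in 63.2% of other windows of genes with a mean of 1 TPM or more and in 27.6% of those of genes below. TATAAA on the sense strand was found in 3 of 12, 7 of 31 and 16 of 41 windows of the same member sets, against 7.85% of other windows, 4.13% at 1 TPM or more and 12.8% below. GCGTG, the core of the response element of the aryl hydrocarbon receptor, was found on either strand in 4 of 12, 7 of 31 and 5 of 41, against 39.6% of other windows, 50.7% at 1 TPM or more and 25.0% below. CCAAT on either strand was found in 6 of 12, 19 of 31 and 13 of 41, against 37.8% of other windows, 37.2% at 1 TPM or more and 38.6% below. The searched words do not overlap in the windows printed here. Windows of members in tandem clusters share ancestry and are not independent.

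The windows of the 3 genes that were apart between the libraries are printed because they differ in these features, 5′ to 3′ on the gene's strand with matched words in capitals.
Cyp2e1, chr7:140763569-140763868, plus strand: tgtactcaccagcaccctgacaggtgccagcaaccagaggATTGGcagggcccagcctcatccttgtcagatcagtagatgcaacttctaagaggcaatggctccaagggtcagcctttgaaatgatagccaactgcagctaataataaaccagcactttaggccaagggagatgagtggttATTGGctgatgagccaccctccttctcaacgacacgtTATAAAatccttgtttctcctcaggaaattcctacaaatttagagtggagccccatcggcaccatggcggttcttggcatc
Cyp2a5, chr7:26835089-26835388, plus strand: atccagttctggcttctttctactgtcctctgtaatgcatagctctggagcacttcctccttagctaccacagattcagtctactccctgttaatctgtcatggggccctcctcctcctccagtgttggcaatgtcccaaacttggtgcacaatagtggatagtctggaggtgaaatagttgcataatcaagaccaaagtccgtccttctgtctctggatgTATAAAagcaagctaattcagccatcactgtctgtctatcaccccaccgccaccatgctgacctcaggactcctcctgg
Cyp1b1, chr17:79715012-79715311, minus strand: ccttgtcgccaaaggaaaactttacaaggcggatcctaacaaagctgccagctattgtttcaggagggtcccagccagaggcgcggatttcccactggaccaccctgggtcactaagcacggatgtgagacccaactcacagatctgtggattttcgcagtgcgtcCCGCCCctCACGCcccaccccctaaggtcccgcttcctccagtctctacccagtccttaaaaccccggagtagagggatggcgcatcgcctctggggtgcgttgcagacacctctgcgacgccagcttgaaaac
Cyp2e1 and Cyp2a5 each held TATAAA, starting 31 bases before the start in Cyp2e1 and 29 bases before it in Cyp2a5, with 4 CG dinucleotides in Cyp2e1 and 2 in Cyp2a5. Cyp1b1 held 16 CG dinucleotides, a GC box on the antisense strand 84 bases before the start and GCGTG on the antisense strand 76 bases before it. In Cyp2e1, CCAAT was found on the antisense strand 210 and 68 bases before the start. These matches describe the letters of the windows and say nothing of binding in heart.

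Genes that work with P450 enzymes were also counted. Over lists of partner genes, 63 of 92 reached 1 TPM in both libraries (68.5%), against 14 of 97 P450 members (14.4%). Of the other nuclear protein-coding genes, 50.1% did. The partner lists were not free of P450 genes, since they hold Cyp51 and may hold others named without Cyp. All 9 genes on the list of electron donors reached 1 TPM in both libraries. That list also holds Pgrmc1 and Pgrmc2, not established as donors. Por, the reductase of microsomal P450 enzymes, had 32.1 TPM in replicate 2 against 27.8 TPM in replicate 1, above the highest P450 gene of each library. Fdx1, the mitochondrial ferredoxin, had 40.6 TPM in replicate 2 against 43.8 TPM in replicate 1. Cyb5a, cytochrome b5, was the highest donor with 65.7 TPM in replicate 2 against 56.0 TPM in replicate 1, and Cyb5r3, its reductase, had 32.6 TPM in replicate 2 against 31.3 TPM in replicate 1. None of the donors was 2-fold apart between the libraries.

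All 12 genes of haem synthesis and breakdown reached 1 TPM in both libraries. Alas1, the first and rate-limiting enzyme of haem synthesis, had 134.2 TPM in replicate 2 against 221.6 TPM in replicate 1, and Fech, which inserts the iron, 88.9 TPM in replicate 2 against 108.6 TPM in replicate 1. Urod had 32.1 TPM in replicate 2 against 30.2 TPM in replicate 1. The inducible haem oxygenase Hmox1 was the only member of this list 2-fold apart, with 6.79 TPM in replicate 2 against 3.26 TPM in replicate 1.

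Several other enzymes of the eicosanoid pathway had higher TPM levels than the summed Cyp2c and Cyp2j genes. Of 14 genes, 8 reached 1 TPM in both libraries. Ptgds, prostaglandin D synthase, had 255.0 TPM in replicate 2 against 353.4 TPM in replicate 1. Ephx2, the soluble epoxide hydrolase that removes the epoxides made by Cyp2c and Cyp2j enzymes, had 66.0 TPM in replicate 2 against 54.5 TPM in replicate 1, and Ephx1, its microsomal counterpart, had 14.6 TPM in replicate 2 against 13.6 TPM in replicate 1. The level of Ephx2 thus exceeded the summed Cyp2c and Cyp2j genes, at 2.24 TPM in replicate 2 against 1.68 TPM in replicate 1. Alox15, a lipoxygenase, was 2-fold or more apart with 2.80 TPM in replicate 2 against 1.13 TPM in replicate 1.

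Of 14 retinoid genes, 9 reached 1 TPM in both libraries. Dhrs3, which reduces retinaldehyde, had 51.9 TPM in replicate 2 against 49.7 TPM in replicate 1. Aldh1a1, which makes retinoic acid, had 13.6 TPM in replicate 2 against 9.24 TPM in replicate 1. The receptor gene Rarb had 5.15 TPM in replicate 2 against 7.78 TPM in replicate 1. Of the 14 genes, 8 were higher in replicate 2, and the median log2 ratio of the list was 0.05. Rbp4, the plasma retinol carrier, was 2-fold or more apart, with 2.83 TPM in replicate 2 against 1.28 TPM in replicate 1.

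Of 15 regulators of P450 genes, 7 reached 1 TPM in both libraries. Ppara, the fatty acid receptor that drives Cyp4a genes in liver, was the highest with 29.1 TPM in replicate 2 against 27.1 TPM in replicate 1, although no Cyp4a gene reached 1 TPM in either library. Rxra, the shared partner of these receptors, had 20.4 TPM in replicate 2 against 19.2 TPM in replicate 1, and the liver X receptor Nr1h2 had 18.4 TPM in replicate 2 against 16.9 TPM in replicate 1. Nr1i2, the pregnane X receptor that drives Cyp3a genes in liver, Hnf4a, a liver factor, and Nr5a1, the steroidogenic factor, were listed at 0 in both libraries. Ahr, the aryl hydrocarbon receptor, had 1.53 TPM in replicate 2 against 1.81 TPM in replicate 1.

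Steroid and sterol genes outside the member rule, among them Cyp51, reached 1 TPM in both libraries for 8 of 16. Hsd17b4, a peroxisomal enzyme, had 38.2 TPM in replicate 2 against 37.0 TPM in replicate 1, Tspo, a protein of the outer mitochondrial membrane, 29.5 TPM in replicate 2 against 22.0 TPM in replicate 1, and Stard3, a cholesterol carrier of late endosomes, 8.01 TPM in replicate 2 against 5.65 TPM in replicate 1. Conjugating enzymes, which act on oxidised products, reached 1 TPM in both libraries for 10 of 12. Gstm1 had 162.6 TPM in replicate 2 against 174.4 TPM in replicate 1, Gstp1 155.8 TPM in replicate 2 against 153.6 TPM in replicate 1, and Mgst3 118.5 TPM in replicate 2 against 124.0 TPM in replicate 1. The sulfotransferase Sult1a1 was 2-fold or more apart with 17.1 TPM in replicate 2 against 7.26 TPM in replicate 1. Among partner genes with a mean of 1 TPM or more, those 2-fold or more apart were Hmox1, Alox15, Rbp4 and Sult1a1, each higher in replicate 2. They were 1 of 12 haem, 1 of 9 eicosanoid, 1 of 9 retinoid and 1 of 10 conjugation genes at that level. None was apart among 9 genes of the electron donor list, 7 regulators and 9 steroid and sterol genes. Of all 12510 genes with a mean of 1 TPM or more, 4.22% were apart, and 3.30% were 2-fold or more higher in replicate 2. Below that mean, the vitamin D receptor gene Vdr was also past 2-fold in TPM, with 1.34 TPM in replicate 2 against 0.51 TPM in replicate 1, while its CPM ratio was 1.64 (95% interval 1.12 to 2.43, counting error only). The median log2 ratio over all genes of a list, low genes included, ran from -0.30 for the eicosanoid enzymes to 0.12 for the electron donor list. The median of 0.02 over the 12510 genes is not comparable, since those were filtered at a mean of 1 TPM.

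**Figure D5:**
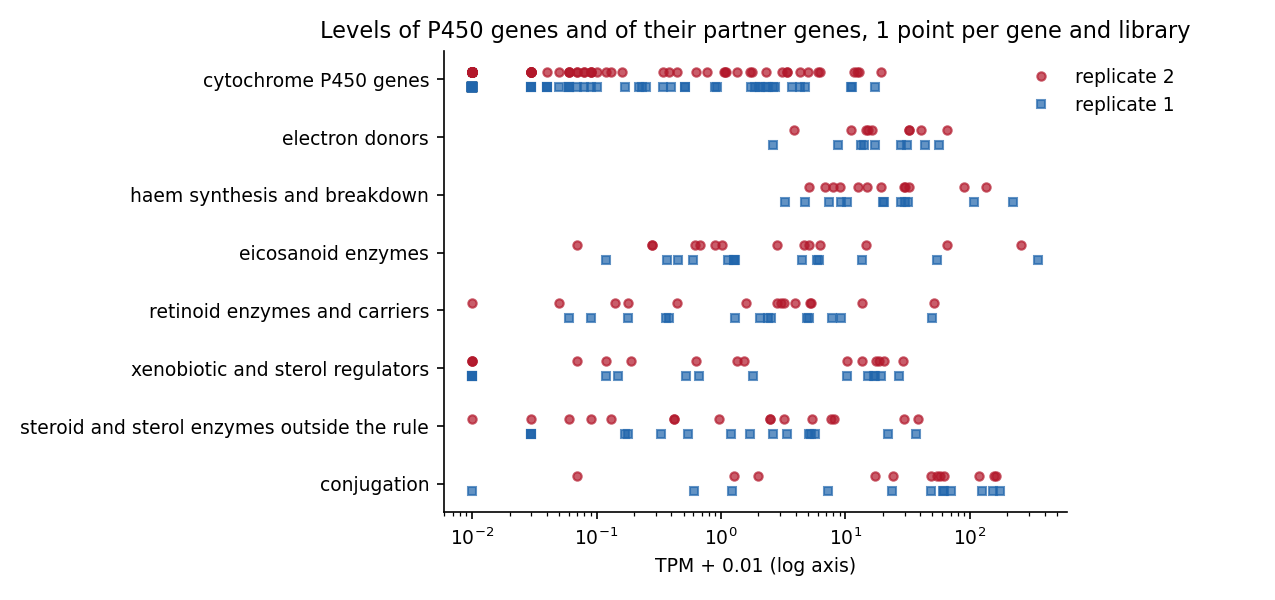
Levels of P450 genes and of the partner lists on a log axis of TPM + 0.01, with 1 point per gene and library (replicate 2 as circles, replicate 1 as squares). The P450 genes pile up at the left end, with 46 of 97 at 0 counts in both libraries. All 9 genes of the electron donor list and all 12 haem genes lie above 1 TPM.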

How the data were processed

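Heart RNA of 1 group with replicates 2 and 1 was analysed, and the members and lists were chosen with earlier results of these data known. Per the deposited readme, the tables refer to mm10, whose sequence is that of C57BL/6J, and to GENCODE M21, and reads from CAST/EiJ alleles were assigned to that reference. The sources used here do not give the quantification programs, and the tables are named after the column layouts of RSEM and kallisto. The authors deposited expected counts, which divide shared reads among genes and transcripts. The authors deposited TPM relative to all rows of a table, and an isoform percent, the part of a gene's TPM held by each transcript. The kallisto-layout transcripts were summed per gene.

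Ratios are of replicate 2 over replicate 1 on log2(TPM + 0.1), a scale on which changes of low genes are understated. Count ratios, scaled to library totals, have exact conditional binomial (Poisson) 95% intervals, which cover counting error only, as do the floors of 3 counts. No p-value was computed, since 1 group gives no contrast. TMM factors came from edgeR 4.0.16 and size factors from DESeq2 1.42.0 in R 4.3.3, on expected counts rounded to whole numbers. The other steps used Python 3.11.15 with pandas 2.3.3, NumPy 2.4.6 and SciPy 1.17.1, and the calculation was tested on simulated data. Named were members with a mean of 1 TPM or more, members with 10 or more counts in either library and a 2-fold difference, members over 2-fold apart between the tables, and the highest of each role. Transcript shares were given for members with a mean of 5 TPM or more. Of each partner list, the 3 highest genes and those 2-fold apart were named. Cyp4v3, Cyp1a1, Cyp26a1, Cyp26c1, Cyp2a4, Cyp4a12a, Cyp51, Por, Pgrmc1, Pgrmc2, Ahr and Vdr were named after their values were seen. Promoters are from RefSeq. Alternatives were the kallisto-layout table, posterior mean TPM, other scalings, pseudocounts and filters, and each library alone.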

Additional observations from a re-analysis of the deposited data

How the results depend on the processing

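The count of 14 detected members was 23 at 0.1 TPM or more in both libraries and 22 at 10 or more counts in both, and ran from 14 to 18 with each library alone. The summed level of 88.2 TPM ran from 74.99 to 101.5 TPM with each library alone, was 74.3 TPM without Cyp2e1 and Cyp2a5, an alternative chosen after seeing the data, and came to 155.8 in CPM. The median of 0.01 TPM was 0.016 in the kallisto-layout table, 0.1 as posterior mean and 0.0 with each library alone. Of the 3 members 2-fold apart, 2 remained with a pseudocount of 1 TPM, and 5 were apart without a filter on low values (Cyp4f18 and Cyp4a12b added) and 4 after TMM scaling (Cyp26b1 added). The median log2 ratio of 0.26 was 0.0 without a filter. Of the 10 highest members, 8 to 10 were shared with those under each alternative. Partner genes at 1 TPM, at 63, were 64 in the kallisto-layout table and 66 as posterior mean, both chosen after seeing the data. Of 90 values for single genes under 5 alternatives each, 14 moved by more than a set spread, and no difference past 2-fold changed sign. The spread was the counting error, or 1 log2 unit for Cyp2a5 and Cyp4a12b, whose intervals have no upper end. Differences that did change sign were those of Cyp2s1, Cyp4f16, Cyp4f17 and Cyp39a1, whose log2 ratio of 0.03 was -0.01 after TMM scaling. The cause of these changes was not tested. Depth limits members under 10 counts to presence or absence. No paired analysis was possible because the labels give 1 group and so no groups to pair.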
